A study of Caenorhabditis elegans with 9 samples.

Results

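The genes described here encode insulin-like peptides of C. elegans and parts of the TGF-beta, steroid hormone and cyclic GMP pathways that, with insulin signalling, decide whether a larva enters the dauer stage. They were chosen by gene symbol from the array's annotation. The choice took every ins gene followed by a number, and 17 named genes of the dauer and body size pathways. It found 40 genes among 17118 measured, of which 26 encode ligands (23 ins genes, daf-28, daf-7 and dbl-1) and 14 encode receptors, Smads, hormone pathway proteins or a guanylyl cyclase. The array's annotation names 23 of the 39 ins genes of the reference annotation, and the other 16 were not analysed here. The 40 genes had 53 probe sets in all, and the probe set with the highest mean over the 9 arrays stood for each gene.

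The levels were measured on 9 Affymetrix arrays of fed larvae of the fourth stage (L4), 3 each from the wild type, from ogt-1(ok430), which lacks the transferase that puts the sugar O-GlcNAc on proteins, and from oga-1(ok1207), which lacks the O-GlcNAcase that removes it. Each array held amplified RNA of 20 pooled whole animals, matched by how far the vulva had formed, and each mutant was represented by 1 allele. The labels call the arrays biological replicates but do not say whether they came from separate cultures, so p-values measure only the spread between these samples. Because whole animals were used, fewer cells of a type and less RNA per cell cannot be told apart.

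The dauer is a non-feeding, stress-resistant larva formed under crowding, starvation or heat. Sensory neurons secrete the TGF-beta ligand DAF-7 and insulin-like peptides when conditions are good. The receptors of DAF-7 then inactivate a repressor complex of DAF-3 and DAF-5, and activated insulin receptor DAF-2 keeps the FOXO factor DAF-16 out of the nucleus. Both arms favour the making of dafachronic acid, a steroid that binds the nuclear receptor DAF-12 and lets growth go on. Some insulin-like peptides act as agonists of DAF-2 and others as antagonists. A separate TGF-beta ligand, DBL-1, sets body size through its own receptor and Smads.

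Values are log2 probe set signals, so a difference of 1 is a doubling. The mean signal was the same on all 9 arrays, and arrays of the same strain correlated across probe sets at r = 0.990 to 0.994. A gene was called higher or lower at a Benjamini-Hochberg adjusted p under 0.05 over all 22548 probe sets of a comparison (limma, two-sided). The ogt-1 transcript itself was lower in ogt-1 mutants by a log2 difference of -0.87 (limma adjusted p = 8.9e-05), and the 3 oga-1 probe sets were not called in oga-1 mutants (-0.32 to -0.25). Of the ligand probe sets, 18 of 26 had a mean above 5.27, the median of all probe sets, and 8 lay below it. This says how bright a probe set was and not how abundant its transcript was. The added hybridisation controls read 9.11 ± 0.09 in the wild type, 9.38 ± 0.12 in ogt-1 mutants and 9.14 ± 0.11 in oga-1 mutants (SD, n = 3). The 3' minus 5' signal of actin, a sign of how far the amplified RNA reached, was 4.77 ± 0.05, 4.04 ± 0.12 and 4.20 ± 0.26 in the same order (SD, n = 3). The part of these controls in the results below was not tested.

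Many insulin-like genes were higher in ogt-1 mutants than in the wild type, and no ligand was called lower. Of the 26 ligands, 10 rose (38.5%), all of them ins genes, where 8.10% of all probe sets rose, and 16 were not called. Their log2 differences ran from 0.66 to 1.67. The median over the 26 ligands was 0.15, against -0.02 over all probe sets. On 11 of 26 ligands (42.3%) the 3 ogt-1 arrays all lay above the 3 wild-type arrays, against 14.3% of all probe sets, and on 3 (11.5%) they all lay below, against 18.8%. The hybridisation controls moved in the same direction, by 0.277, and the 3' minus 5' signal of actin differed by -0.73 (both p = 0.1 by a two-sided exact permutation test, and groups of 3 cannot give a lower one).

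**Figure D1:**
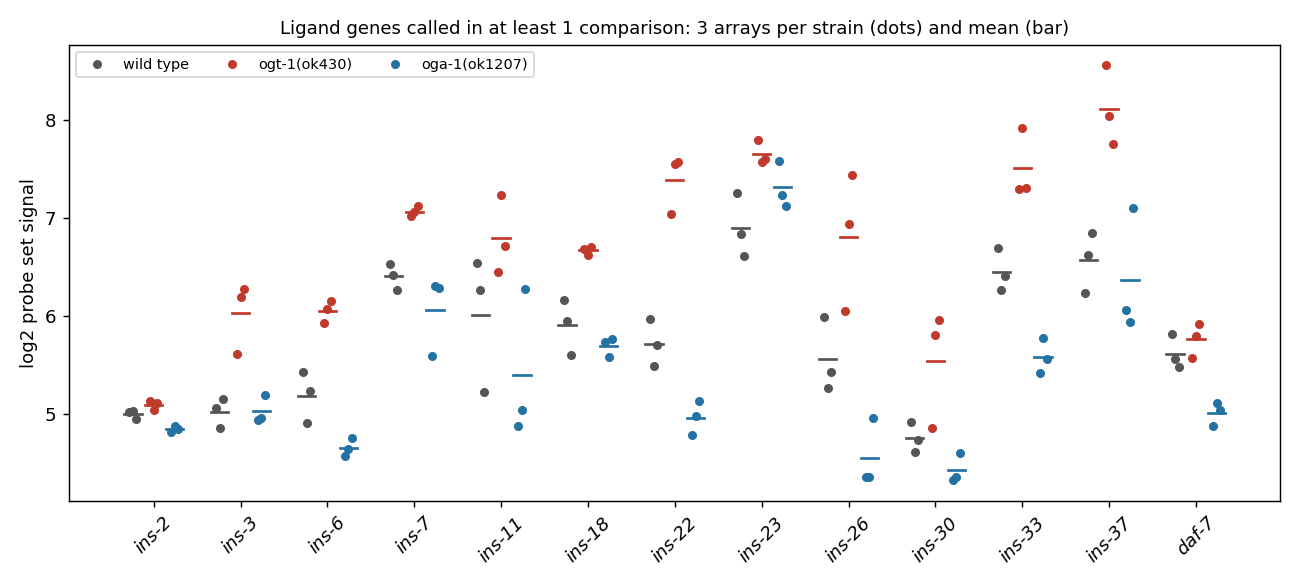
Log2 signal (vertical axis) of the 13 ligand genes called in at least 1 comparison, with a dot for each array and a bar for the mean of 3 arrays, in the wild type (grey), ogt-1 mutants (red) and oga-1 mutants (blue). For ins-22, ins-6, ins-33, ins-26 and ins-2 the 3 strains form separate layers, with ogt-1 highest and oga-1 lowest. In ins-26 and ins-2 the wild-type and ogt-1 layers nearly touch.

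The gene with the largest difference among the ligands was ins-22. Its signals were 5.97, 5.49 and 5.70 on the wild-type arrays, 7.04, 7.55 and 7.57 on the ogt-1 arrays, and 4.79, 4.98 and 5.13 on the oga-1 arrays. The 3 strains did not overlap. The rise in ogt-1 mutants was 3.18-fold, or 1.67 in log2, with a 95% confidence interval from 1.32 to 2.02 (limma adjusted p = 4.0e-05). The oga-1 arrays averaged -0.75 from the wild type, with an interval from -1.11 to -0.40, and this was not called (limma adjusted p = 0.088).

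The gene ins-37 read 6.24, 6.62 and 6.85 in the wild type, 8.56, 8.04 and 7.75 in ogt-1 mutants, and 6.06, 5.93 and 7.10 in oga-1 mutants. All ogt-1 arrays lay above all others, while oga-1 and wild-type arrays overlapped. It rose 2.92-fold in ogt-1 mutants (limma adjusted p = 0.0027).

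The gene ins-33, whose transcription is repressed by the timing factor LIN-14, again gave 3 separate layers. Its wild-type signals were 6.69, 6.26 and 6.40, its ogt-1 signals 7.30, 7.91 and 7.31, and its oga-1 signals 5.42, 5.78 and 5.56. It rose 2.08-fold in ogt-1 mutants (limma adjusted p = 0.0011). The oga-1 difference was -0.87, with a 95% confidence interval from -1.24 to -0.49 and an adjusted p of 0.065 by limma.

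The peptide INS-6 is an agonist of DAF-2 that is made in sensory neurons and acts against the dauer state. The ins-6 signals were 5.43, 4.90 and 5.23 in the wild type, 5.93, 6.07 and 6.15 in ogt-1 mutants, and 4.57, 4.64 and 4.75 in oga-1 mutants. The 3 strains were again separate. The rise in ogt-1 mutants was 1.82-fold (limma adjusted p = 6.2e-04), and the oga-1 difference was -0.53 (limma adjusted p = 0.11).

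The agonist gene ins-7, which is expressed in the intestine and repressed there by DAF-16, read 6.53, 6.42 and 6.26 in the wild type. It read 7.01, 7.06 and 7.12 in ogt-1 mutants and 5.59, 6.31 and 6.28 in oga-1 mutants. The ogt-1 arrays lay closer together than those of the other strains and above all of them. The rise of 1.58-fold (limma adjusted p = 0.015) lost its call when wild-type array 3 or ogt-1 array 3 was left out, and the adjusted p then reached at most 0.055.

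An antagonist moved in the same direction as these agonists. INS-18 lowers DAF-2 signalling, and ins-18 read 6.16, 5.94 and 5.60 in the wild type, 6.68, 6.62 and 6.70 in ogt-1 mutants, and 5.73, 5.58 and 5.76 in oga-1 mutants. It rose 1.70-fold in ogt-1 mutants (limma adjusted p = 0.0014), while wild-type and oga-1 arrays overlapped. The other well-known antagonist gene, ins-1, was not called, at 5.47 ± 0.20 in the wild type, 5.37 ± 0.19 in ogt-1 mutants and 5.15 ± 0.06 in oga-1 mutants (SD, n = 3).

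The remaining risers in ogt-1 mutants were ins-3, ins-23, ins-26 and ins-30. The gene ins-3 read 5.07, 4.86 and 5.15 in the wild type, 5.62, 6.20 and 6.27 in ogt-1 mutants, and 4.94, 4.96 and 5.20 in oga-1 mutants. It rose 2.01-fold (limma adjusted p = 0.0010), and its oga-1 difference was 0.01 with a 95% confidence interval from -0.34 to 0.36. The gene ins-23 read 7.25, 6.84 and 6.61 in the wild type, 7.79, 7.57 and 7.60 in ogt-1 mutants, and 7.58, 7.23 and 7.12 in oga-1 mutants. Among the 10 risers, ins-23 had the only oga-1 mean well above the wild type, by 0.42 (limma adjusted p = 0.27), with overlapping arrays.

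The genes ins-26 and ins-30 varied most between ogt-1 arrays. The ins-26 signals were 5.99, 5.26 and 5.43 in the wild type, 6.05, 6.93 and 7.44 in ogt-1 mutants, and 4.35, 4.36 and 4.96 in oga-1 mutants. The lowest ogt-1 array thus lay just above the highest wild-type array. The rise was 2.37-fold (limma adjusted p = 0.013), and the call ended without wild-type array 2, ogt-1 array 2 or ogt-1 array 3. The ins-30 signals were 4.92, 4.62 and 4.73 in the wild type, 4.85, 5.80 and 5.96 in ogt-1 mutants, and 4.33, 4.36 and 4.60 in oga-1 mutants. Its ogt-1 array 1 lay within the wild-type range. The call (1.72-fold, limma adjusted p = 0.033) ended on leaving out wild-type array 2, wild-type array 3, ogt-1 array 2 or ogt-1 array 3.

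The 16 ligands that were not called in ogt-1 mutants had log2 differences from -0.37 to 0.79. The upper end was ins-11, a gene of the response to pathogens in the intestine, at 6.01 ± 0.69 in the wild type and 6.80 ± 0.40 in ogt-1 mutants (SD, n = 3), with a confidence interval from -0.05 to 1.62. The lower end was ins-5, at 7.09, 7.15 and 7.20 in the wild type and 6.87, 6.62 and 6.85 in ogt-1 mutants. These arrays did not overlap, and the difference of -0.37 had an adjusted p of 0.053 by limma. Of the remaining 14, each lay between -0.20 and 0.18. The agonist genes daf-28 and ins-4 were among the dimmest probe sets, with means over the 9 arrays of 4.31 and 4.30, on arrays whose lowest values were 3.49 to 3.61. They differed by 0.02 and -0.01 in ogt-1 mutants. The TGF-beta ligand genes daf-7 and dbl-1 differed by 0.15 (confidence interval -0.12 to 0.41) and -0.04 (-0.24 to 0.16).

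**Figure D2:**
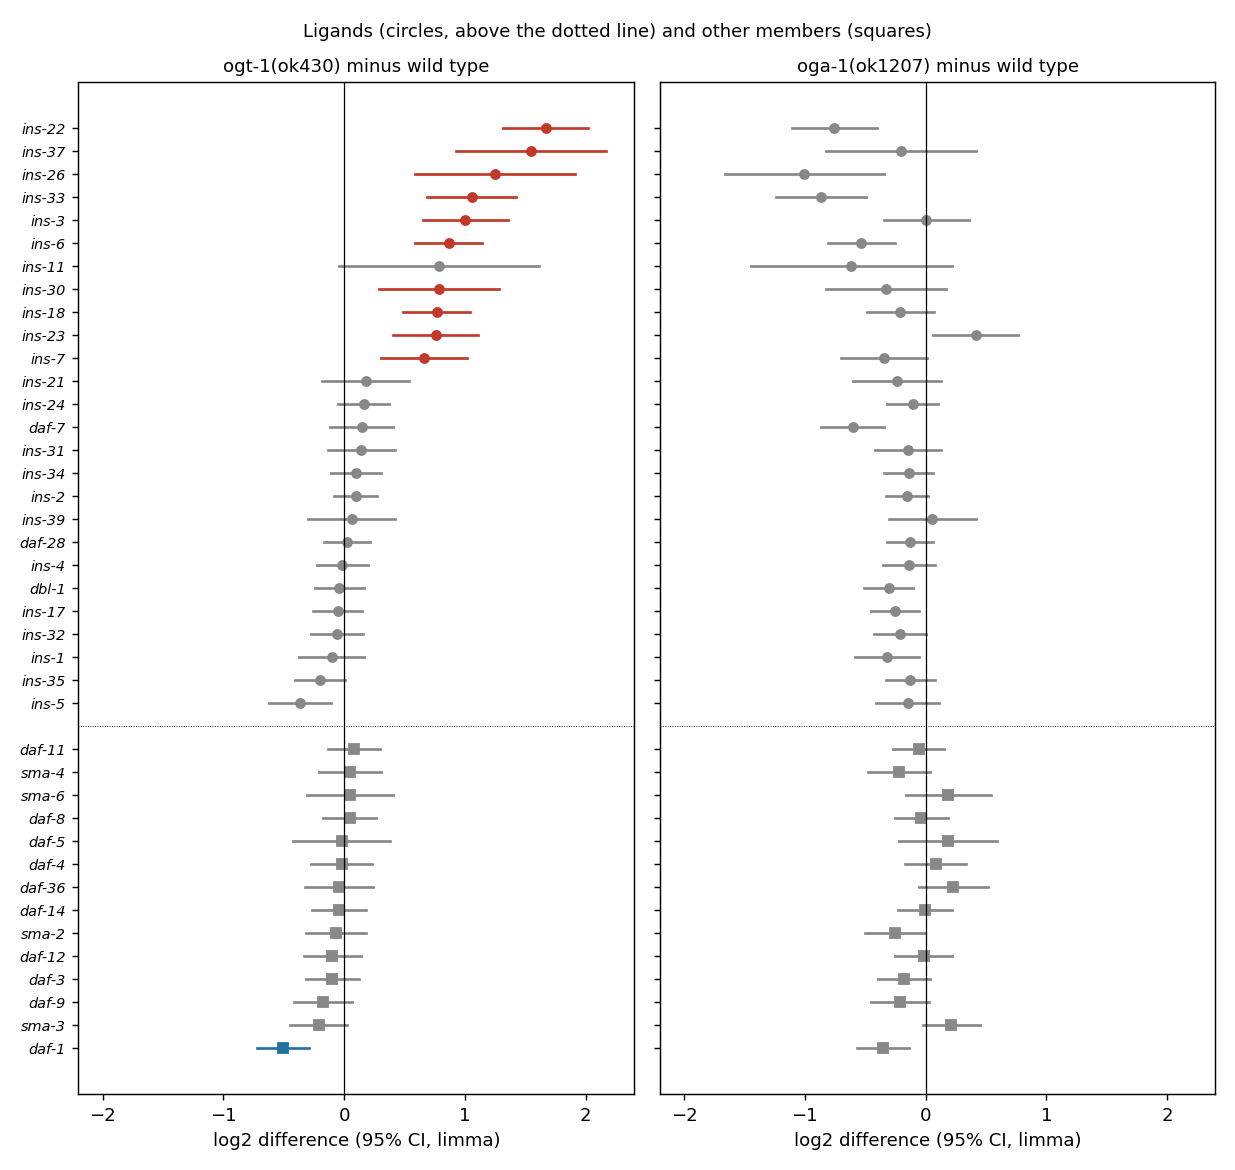
Log2 difference from the wild type (horizontal axis) with its 95% confidence interval for all 40 genes, in ogt-1 mutants (left) and oga-1 mutants (right), with ligands as circles above the dotted line and other genes as squares below it. Red marks genes called higher and blue genes called lower; 10 ligands were called in ogt-1 mutants and none in oga-1 mutants, where 14 ligands had all 3 arrays below the wild-type arrays.

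In oga-1 mutants no ligand passed the test, but ligand signals were mostly below those of the wild type. By limma 0 of 26 ligands were called in either direction, where 0.191% of all probe sets were called higher and 0.0665% lower, and at an unadjusted p under 0.05 there were 8 lower and 1 higher, where 6.79% of all probe sets were lower and 7.89% higher at that threshold. The median log2 difference was -0.21, against -0.01 over all probe sets, and only ins-3, ins-23 and ins-39 had a difference above 0. On 14 of 26 ligands (53.8%) no oga-1 array fell within the range of the wild type or the reverse, against 20.5% of all probe sets, and on all 14 the oga-1 arrays were the lower ones. This comparison shares its wild-type arrays with the one of ogt-1 mutants, so the 2 are not independent. Here the hybridisation controls differed by 0.037 (exact permutation p = 0.6, two-sided), and the 3' minus 5' signal of actin by -0.57 (exact permutation p = 0.1, two-sided).

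The lowest adjusted p-values in oga-1 mutants were those of ins-33 (0.065 by limma) and daf-7. The gene daf-7, the dauer-suppressing ligand of the ASI sensory neurons, read 5.81, 5.56 and 5.48 in the wild type, 5.57, 5.80 and 5.91 in ogt-1 mutants, and 4.88, 5.12 and 5.04 in oga-1 mutants. Wild-type and ogt-1 arrays overlapped and all oga-1 arrays lay below both. The difference of -0.60 from the wild type had a confidence interval from -0.87 to -0.34 and an adjusted p of 0.066 by limma. The largest oga-1 difference among the ligands was that of ins-26, whose mean was 2.00-fold below the wild type, with a log2 interval from -1.66 to -0.34 (limma adjusted p = 0.17). The gene dbl-1 read 5.46, 5.49 and 5.41 in the wild type and 5.18, 5.14 and 5.12 in oga-1 mutants, a difference of -0.31 with an interval from -0.51 to -0.10 (limma adjusted p = 0.17). Its arrays did not overlap either. A second, dimmer probe set of dbl-1, with a mean of 4.27, differed by -0.12 in oga-1 mutants (limma adjusted p = 0.58).

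Set directly against each other, the mutants differed in 12 of 26 ligands (46.2%), all higher in ogt-1 mutants, where 9.63% of all probe sets were called higher. On 18 of 26 (69.2%) all ogt-1 arrays lay above all oga-1 arrays, against 16.5% of all probe sets, and on 0 all lay below, against 19.1%. The largest differences were those of ins-22, at 5.37-fold (limma adjusted p = 2.2e-06), ins-26, at 4.75-fold (2.8e-04), ins-33, at 3.79-fold (1.7e-05), and ins-37, at 3.37-fold (9.2e-04). The agonist gene ins-6 was 2.63-fold higher (limma adjusted p = 2.1e-05). The genes ins-30, ins-7, ins-3 and ins-18 differed by 2.16-fold, 2.00-fold, 2.00-fold and 1.96-fold. The gene ins-23 was not called between the mutants (log2 difference 0.34, limma adjusted p = 0.16).

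The other calls between the mutants were daf-7, ins-11 and ins-2. The gene daf-7 was 1.68-fold higher in ogt-1 mutants, with an adjusted p of 8.5e-04 by limma, and lost the call without the 3 arrays of widest spread over probe sets (limma adjusted p = 0.075). The gene ins-11 was 2.64-fold higher (limma adjusted p = 0.019), with 6.45, 7.23 and 6.71 in ogt-1 and 4.87, 5.04 and 6.28 in oga-1 mutants, and lost the call without ogt-1 array 2, oga-1 array 1 or oga-1 array 2. Its probe set is of a type that the array's maker marks as shared by several transcripts. The difference of ins-2 was 0.25 (limma adjusted p = 0.043), and the call ended under 16 of 21 alternatives, among them leaving out any 1 array other than oga-1 array 2.

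In the reference annotation (WBcel235) several ins genes stand side by side, with no other protein-coding gene or pseudogene between them. There were 3 such runs among the measured genes, ins-2 to ins-6, ins-21 to ins-23, and ins-24, ins-30 and ins-26, with 11 genes in all. In ogt-1 mutants 6 of these 11 rose, as did 4 of the other 13 insulin-like genes, where 8.10% of all probe sets rose. Each run held genes that rose and genes that were not called, and differences between neighbours were not tested. In the longest, ins-3 and ins-6 rose, while ins-2, ins-4 and ins-5 differed by 0.10, -0.01 and -0.37. In the run of ins-21 to ins-23, ins-22 and ins-23 rose and ins-21 differed by 0.18 (limma adjusted p = 0.58). In the third, ins-30 and ins-26 rose and ins-24 differed by 0.16, but a second, dimmer probe set of ins-24 rose by 0.59 (limma adjusted p = 0.047).

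**Figure D3:**
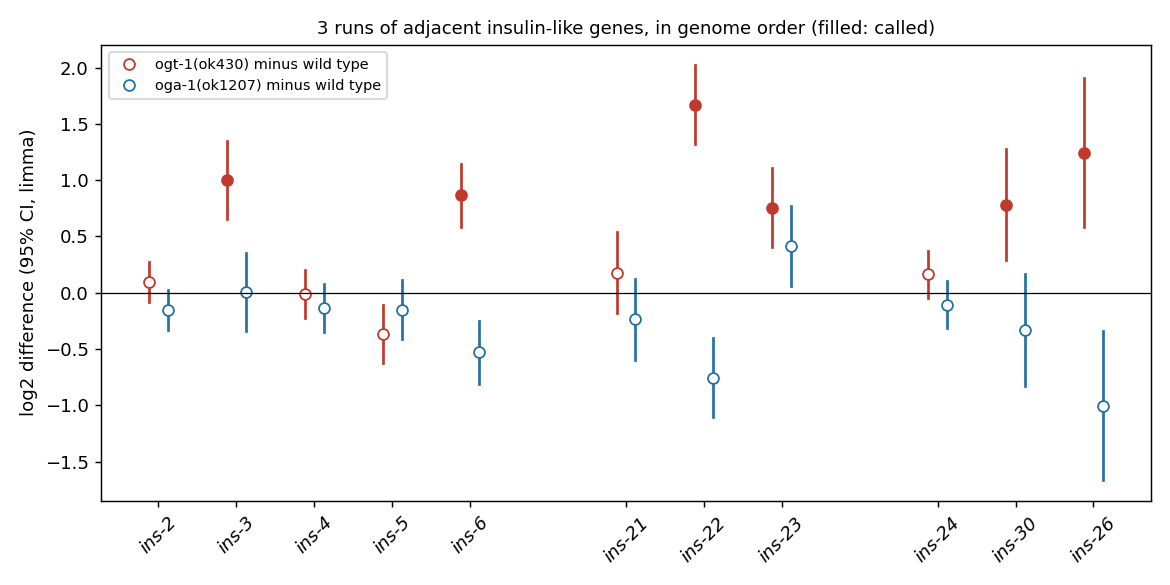
Log2 difference from the wild type (vertical axis) with its 95% confidence interval for 11 insulin-like genes in 3 runs of adjacent genes, in genome order, in ogt-1 mutants (red) and oga-1 mutants (blue). Filled circles mark called genes; each run holds 2 genes that rose in ogt-1 mutants beside genes that were not called.

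The 14 chosen genes of the TGF-beta, steroid hormone and cyclic GMP pathways other than ligands differed little in level. The insulin receptor and the genes that act after it are not among them and are given further below. Of the 14 receptors, Smads, hormone pathway genes and daf-11, 0 were called higher and 1 (7.14%) lower in ogt-1 mutants, where 9.15% of all probe sets were called lower. The median was -0.04. The 13 that were not called lay between -0.21 and 0.08, with confidence intervals from -0.45 to 0.40 at the widest. In oga-1 mutants 0 of 14 were called by limma and 2 were lower at an unadjusted p under 0.05, against 6.79% of all probe sets, with differences from -0.35 to 0.23.

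Among the receptors, daf-1 was the one called. It encodes the type I receptor of DAF-7 and read 6.61, 6.57 and 6.35 in the wild type, 6.11, 6.02 and 5.88 in ogt-1 mutants, and 6.14, 6.18 and 6.15 in oga-1 mutants. Both mutants lay below the wild type on every array. The log2 difference in ogt-1 mutants was -0.51, with an interval from -0.72 to -0.29 (limma adjusted p = 0.0037), and the oga-1 difference was -0.35 (limma adjusted p = 0.15). A second, dimmer probe set of daf-1, with a mean of 4.39, differed by 0.04 in ogt-1 mutants (limma adjusted p = 0.88). The type II receptor gene daf-4, which serves both TGF-beta ligands, read 7.78 ± 0.15, 7.76 ± 0.14 and 7.87 ± 0.16 in wild type, ogt-1 and oga-1 (SD, n = 3). The DBL-1 receptor gene sma-6 read 5.74 ± 0.18, 5.79 ± 0.27 and 5.93 ± 0.27 (SD, n = 3).

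**Figure D4:**
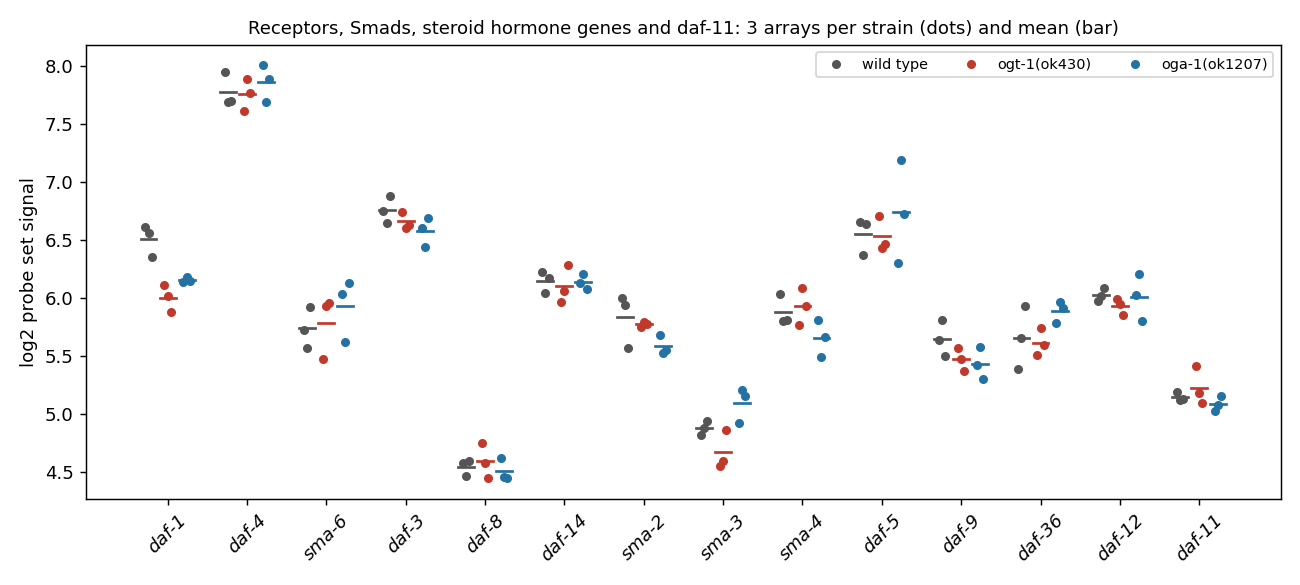
Log2 signal (vertical axis) of the 14 receptor, Smad, hormone pathway and guanylyl cyclase genes, with a dot for each array and a bar for the mean of 3 arrays, in the wild type (grey), ogt-1 mutants (red) and oga-1 mutants (blue). In daf-1 all 6 mutant arrays lie below the 3 wild-type arrays, and most other genes overlap between strains.

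None of the 6 Smad genes was called against the wild type in either mutant. Between the mutants, sma-3, a Smad of the body size pathway, was lower in ogt-1 than in oga-1 mutants, where 14.2% of all probe sets were called lower, with a log2 difference of -0.42 (limma adjusted p = 0.014). Its signals were 4.82, 4.88 and 4.94 in the wild type, 4.55, 4.59 and 4.86 in ogt-1 mutants, and 4.92, 5.20 and 5.15 in oga-1 mutants. The call ended without ogt-1 array 1, ogt-1 array 2 or oga-1 array 3. The DAF-7 pathway Smads daf-8 and daf-14 differed by 0.05 and -0.04 in ogt-1 mutants, the antagonistic Smad daf-3 by -0.10, and the other body size Smads sma-2 and sma-4 by -0.06 and 0.05. The Ski-related partner of DAF-3, daf-5, differed by -0.02 in ogt-1 mutants. Its 2 brighter probe sets, with means of 6.61 and 6.46, are both of a type that the array's maker marks as prone to cross-hybridise.

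In the steroid hormone arm no gene was called. The nuclear receptor gene daf-12 read 6.03 ± 0.06, 5.93 ± 0.07 and 6.01 ± 0.21 in wild type, ogt-1 and oga-1 (SD, n = 3). The cytochrome P450 gene daf-9, which makes dafachronic acid, had differences of -0.18 (ogt-1) and -0.21 (oga-1), with adjusted p-values of 0.36 and 0.39 by limma. The oxygenase gene daf-36, which acts early in the same synthesis, differed by -0.04 and 0.23 (0.89 and 0.43). The guanylyl cyclase gene daf-11 of pheromone-sensing neurons differed by 0.08 and -0.06 (0.68 and 0.83).

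Among 43 other genes of the same pathways, in 4 lists, 6 were called lower and 0 higher in ogt-1 mutants, where 9.15% of all probe sets were called lower and 8.10% higher. In the core of insulin signalling, 2 of 13 fell, the 14-3-3 genes par-5 (-0.66) and ftt-2 (-0.57), and 0 rose. The probe sets of ftt-2 and of the receptor gene daf-2 are of the type marked as prone to cross-hybridise. Those of par-5, and of aap-1, emb-8, daf-22 and daf-19 named below, are of the type marked as shared by several transcripts. The receptor, kinases and FOXO gene were not called against the wild type. The mean of the 13 was 7.39 to 7.50 over wild-type arrays, 7.13 to 7.32 over ogt-1 arrays and 7.36 to 7.59 over oga-1 arrays. Of 8 other TGF-beta pathway genes 1 fell, lon-1, which the DBL-1 pathway represses, from 7.26 ± 0.11 to 5.68 ± 0.19 (SD, n = 3; limma adjusted p = 4.7e-06). Of 8 further genes of steroid hormone synthesis and action 1 fell, emb-8, an NADPH-cytochrome P450 reductase (-0.74). Of 14 genes of pheromone making and sensing 2 fell, the peroxisomal thiolase daf-22 (-0.81) and the ciliary transcription factor daf-19 (-0.63). None of these lists held a called riser against the wild type, and in oga-1 mutants limma called 0 genes in each of them. At an unadjusted p under 0.05 by limma 7 of 43 differed in oga-1 mutants, where 7.89% of all probe sets were higher and 6.79% lower. Between the mutants 7 of the 43 were called lower and 3 higher in ogt-1, against 14.2% and 9.63% of all probe sets. In the core of insulin signalling 3 of 13 were lower, among them par-5 (-0.69) and the gene aap-1 (-0.68), and 0 higher.

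Of 10 genes that process and release peptides, 2 rose and 1 fell in ogt-1 mutants, against 8.10% and 9.15% of all probe sets. The gene sbt-1, a chaperone of the proprotein convertase EGL-3, rose from 8.72 ± 0.31 to 10.07 ± 0.30 (SD, n = 3; limma adjusted p = 2.1e-04), and the convertase gene aex-5 rose by 0.56. The probe sets of sbt-1 and aex-5 are of the type marked as shared by several transcripts. The ATPase gene asna-1, which promotes insulin secretion, fell by 0.43. The convertase gene egl-3 read 8.10 ± 0.24, 8.40 ± 0.19 and 7.43 ± 0.09 in wild type, ogt-1 and oga-1 (SD, n = 3). Between the mutants, 3 of the 10 were called higher in ogt-1, namely sbt-1 (1.59), egl-3 (0.98) and aex-5 (0.44), against 9.63% of all probe sets. The other 2 calls were lower, asna-1 (-0.69) and the convertase gene bli-4 (-0.64), against 14.2%.

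The markers of cell types were read beside the ligands, since many insulin-like genes are expressed in neurons and the intestine. The mean signal of 13 neuron markers ranged from 5.56 to 5.67 over wild-type arrays, 5.61 to 5.67 over ogt-1 arrays and 5.57 to 5.67 over oga-1 arrays. Of the 13 neuron markers 1 rose in ogt-1 mutants, unc-18 (0.92), and 0 fell, where 8.10% of all probe sets rose and 9.15% fell. Between the mutants 1 was called higher in ogt-1, unc-18 (0.71), against 9.63% of all probe sets. The neuron markers snb-1 (-0.51) and unc-64 (-0.49) were called lower, against 14.2%. Some neuron markers were dimmer than the median of all probe sets, which limits what they could show. The mean of 9 intestine markers was 8.85 ± 0.15, 8.86 ± 0.05 and 8.94 ± 0.08 in wild type, ogt-1 and oga-1 (SD, n = 3). Of these 9, elt-7 and ges-1 rose and act-5 and pho-1 fell in ogt-1 mutants, where 8.10% of all probe sets rose and 9.15% fell. The mean of 7 germ line markers ranged from 8.33 to 8.47 over wild-type arrays, 8.04 to 8.23 over ogt-1 arrays and 8.41 to 8.64 over oga-1 arrays. This mean was lowest where the ligand mean was highest, although 2 of the 7 markers had a difference above 0 in ogt-1 mutants. The mean of the insulin signalling core, given above, had the same order, so this order was not particular to germ line markers. Of these 7 markers 2 fell in ogt-1 mutants, glh-1 and pgl-3, against 9.15% of all probe sets. On 3 all oga-1 arrays lay above the wild type, where 20.5% of all probe sets did not overlap in either direction. Between the mutants 4 were called lower in ogt-1, against 14.2% of all probe sets. By comparison, the mean of the 26 ligands was 5.47 to 5.67 over wild-type arrays, 5.89 to 6.03 over ogt-1 arrays and 5.17 to 5.33 over oga-1 arrays, without overlap. Among the markers named, the probe sets of unc-64, ges-1, act-5, pho-1, glh-1 and mup-2 are of the type marked as shared by several transcripts. The part of these marker levels in the ligand results was not tested.

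Of 4 genes listed for the dauer stage none was called. All arrays were of fed L4 larvae and none of dauer larvae, so these genes cannot show whether dauer entry was altered. The dauer collagen col-2, the cuticlin cut-1 and the small heat shock genes hsp-12.6 and sip-1, passed the test in no comparison by limma, and 0 of them reached an unadjusted p under 0.05. Their differences from the wild type lay between -0.01 and 0.13 in ogt-1 and between -0.08 and 0.08 in oga-1 mutants. The sip-1 signal was already 14.2 in the wild type, where the highest values of the arrays were 14.75 to 14.93, so a rise of this gene could hardly be seen. So bright a signal in fed L4 larvae goes against the list's name, but the probe set is of the type marked as shared by several transcripts.

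**Figure D5:**
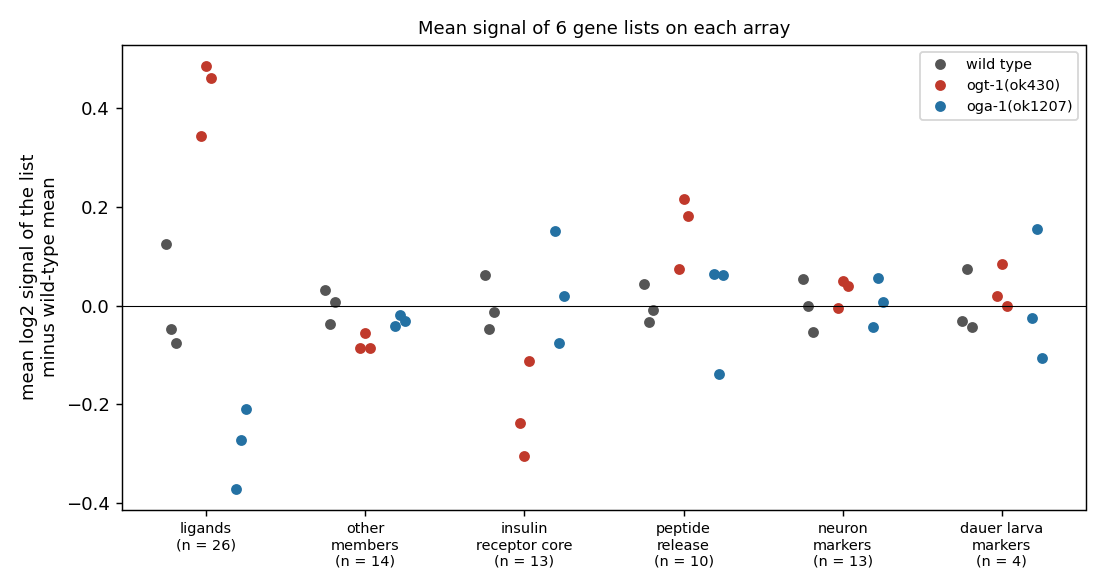
Mean log2 signal of 6 gene lists on each array, minus the list's wild-type mean (vertical axis), in the wild type (grey), ogt-1 mutants (red) and oga-1 mutants (blue), with the number of genes under each list. The ligand mean lies 0.34 to 0.49 above the wild-type mean on the ogt-1 arrays and 0.21 to 0.37 below it on the oga-1 arrays. The neuron marker mean stays within 0.06 of its own wild-type mean on every array, although single markers were called in both directions between the mutants.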

How the data were processed

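The authors deposited 1 table of log2 probe set signals for 22625 probe sets on 9 arrays, already on a common scale. The submitters' processing notes name MAS5, RMA and Partek without roles or versions, so the tool behind these values is unknown here. Per the labels' protocols, RNA was amplified by 1 round of T7 transcription and labelled with biotin. The 77 control probe sets were left out. Symbols came from the platform annotation. A linear model was fitted to all 22548 remaining probe sets (limma 3.58.1, R 4.3.3), with strain as the only term over all 9 arrays, and no filter on signal. Precision is limited by the number of arrays, and the standard error of a difference had a median of 0.12 over the 40 genes. Non-overlap means that the 3 arrays of a group all lie on one side of the 3 of the other.

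The genes, roles and 12 comparison lists were chosen with earlier results of these data known. Of the 40 genes all are accounted for; called genes and a few well-known ones are named. List genes named are up to 2 called per direction by smallest p, and egl-3, aex-5 and bli-4 between the mutants, which were named after their values were seen. The fit was tested on simulated data with known changes. The replicate numbers in the labels are not stated to pair arrays, and same-numbered arrays of different strains had deviations correlated at -0.173 to 0.244, so arrays were taken as unpaired. The 22 alternatives were other normalizations, filters, thresholds, variance models and probe set choices, each array left out, the replicate block, and the spread of arrays. The order of genes came from the WBcel235 annotation, and sequences were not analysed here.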

Additional observations from a re-analysis of the deposited data

How the results depend on the processing

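The 10 ligands higher in ogt-1 mutants than in the wild type numbered 7 to 10 when 1 array was left out, and 8 to 11 under all other alternatives. With the replicate block they numbered 10, and 13 in place of 12 ligands were higher in ogt-1 than in oga-1 mutants, of which 11 were shared: ins-2 was not called and ins-21 and ins-23 were. Against oga-1 mutants the 12 higher ligands numbered 10 to 13 when 1 array was left out. They numbered 8 without the 3 arrays of widest spread (ogt-1 array 3, oga-1 arrays 1 and 3, each with an SD above 1.8), where the lone oga-1 array is taken to vary as the other groups do, and 16 with array weights or at an adjusted p under 0.1. Beside the arrays named in the report, ins-26 lost its call against the wild type with an intensity trend or without the wide arrays, and ins-30 with these, the 2 groups alone, median centring or the array SD as a covariate. Between the mutants, ins-2 also lost its call with the 2 groups alone, quantile normalization, median centring, an intensity trend, the 1.5-fold minimum or the array SD as a covariate. The gene ins-11 also lost its call with an intensity trend, and ins-2, ins-11, ins-30 and daf-7 lost theirs without the wide arrays. The genes ins-3, ins-6, ins-18, ins-22, ins-33 and ins-37 kept both calls under all 22 alternatives. No called difference changed sign except that of daf-1, which was 0.041 by its dimmer probe set.

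The ligand lower in ogt-1 mutants numbered 1 (ins-5) in place of 0 with the 2 groups alone, above the median level, with array weights, at an adjusted p under 0.1, and without the wide arrays, and 0 to 1 without 1 array. Ligands lower in oga-1 mutants numbered 1 with the 2 groups alone or above the median level, 3 (ins-22, ins-33 and daf-7) with an intensity trend, with array weights or at an adjusted p under 0.1, and 0 to 1 without 1 array. With array weights 1 other gene, daf-1, was lower in oga-1 mutants. The other gene lower in ogt-1 mutants, daf-1, was not called, leaving 0, with a 1.5-fold minimum, the mean of its probe sets or the dimmer one. That between the mutants, sma-3, left 0 with the 1.5-fold minimum, above the median level, where it was not tested, and 0 to 1 without 1 array. Dim probe sets limit what could be seen: 8 of 26 ligands lay below the median level and were not tested above it.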
